A study of Mus musculus with 1152 samples.

Results

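Heat shock proteins and their cochaperones were represented by 9 of the 48587 genes of the table, chosen by name: Hspa1a, Hspa1b, Hspa5 and Hspa8 of the HSP70 family, Hsp90aa1, Hsp90ab1 and Hsp90b1 of the HSP90 family, and the J-domain cochaperones Dnajb1 and Dnajc7. They were followed in microglia, which are macrophages that live in the brain, with each cell sorted into its own well and sequenced full-length by Smart-seq2. The groups were cortex (4 mice), hippocampus (3 mice) and cerebellum (3 mice) of 5xFAD mice and the same regions of WT mice (4 mice each). 5xFAD is a transgenic line that forms amyloid plaques, in which human transgenes with familial Alzheimer mutations are driven in neurons by the Thy1 promoter. All groups carry the strain label C57BL/6J, no other treatment is labelled, and the sources used here give neither age nor sex of the mice. The series' design text says that the regions of a genotype came from the same mice, and the replicate number was taken as the mouse.

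Of 1140 wells labelled as cells, 1041 passed the filters, with a median of 198492 to 343580 reads in genes per cell by group. Reads were summed over the cells of each mouse in each region. The resulting 22 sums hold between 35 and 72 cells and between 5696201 and 26669220 reads. Each of 3 plates held 2 groups, 5xFAD hippocampus with 5xFAD cerebellum, 5xFAD cortex with WT cerebellum, and WT hippocampus with WT cortex. Genotype and plate therefore cannot be told apart in any comparison of 5xFAD with WT. All 9 microglial marker genes had reads in every group, and their summed level was 45430 to 69166 CPM (reads scaled to the depth of the library). The plaque-responsive gene Cst7 averaged 9.18 log2 CPM in 5xFAD cortex and -0.21 in WT cortex, 10.86 in 5xFAD hippocampus and 0.47 in WT hippocampus, and 5.46 in 5xFAD cerebellum and 4.18 in WT cerebellum. In cerebellum its mice overlapped, from 2.16 to 8.20 log2 CPM in 5xFAD mice and from 2.47 to 5.19 in WT mice, so there it does not check the labels. Wells with markers of another cell type numbered 36 of 1041, of which 20 were in 5xFAD cerebellum and 11 in WT cerebellum. The 12 blank wells held 90 reads of Hsp90ab1 in 4 wells, 2 of Hspa5, 2 of Hspa8, 1 of Dnajc7 and 0 of the other members.

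Heat shock proteins are chaperones. HSP70 proteins bind and release unfolded stretches of a client protein in a cycle driven by ATP, J-domain proteins deliver clients to them and start that cycle, and HSP90 proteins act later, on clients that are nearly folded, among them kinases and receptors. The cell keeps separate sets for the cytosol, where heat shock factor HSF1 raises the inducible genes under stress, and for the endoplasmic reticulum, where the unfolded protein response raises Hspa5 and Hsp90b1. In dissociated microglia, inducible heat shock genes and immediate early genes are also known as signs of handling.

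The promoters of the reticulum pair and of the inducible pair are shown because the elements known for these 2 programs can be read in them. The RefSeq table (GRCm38.p6) held promoters for 6 of the 9 members; Hspa8, Hsp90aa1 and Hsp90ab1 were not among them. Each window is the 250 bases before the transcription start, 5′ to 3′ on the gene's strand. Capitals mark the endoplasmic reticulum stress element, CCAAT and CCACG with 9 bases between them (either strand), in Hspa5 (chr2:34771840-34772089, plus strand) and Hsp90b1 (chr10:86705445-86705694, minus strand), and the heat shock element pair GAANNTTC, which reads alike on both strands, in Hspa1a (chr17:34972157-34972406, minus strand) and Hspa1b (chr17:34959239-34959488, minus strand).
Hspa5: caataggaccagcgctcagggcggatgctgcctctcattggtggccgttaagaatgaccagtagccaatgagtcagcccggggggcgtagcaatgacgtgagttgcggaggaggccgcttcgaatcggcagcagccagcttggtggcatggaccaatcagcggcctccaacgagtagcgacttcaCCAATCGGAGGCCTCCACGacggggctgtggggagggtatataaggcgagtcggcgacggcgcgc
Hsp90b1: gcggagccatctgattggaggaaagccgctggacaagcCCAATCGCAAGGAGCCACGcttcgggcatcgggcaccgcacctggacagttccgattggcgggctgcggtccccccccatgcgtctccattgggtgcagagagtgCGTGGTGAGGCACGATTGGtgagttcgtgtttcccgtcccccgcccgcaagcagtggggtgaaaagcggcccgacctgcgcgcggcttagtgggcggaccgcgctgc
Hspa1a: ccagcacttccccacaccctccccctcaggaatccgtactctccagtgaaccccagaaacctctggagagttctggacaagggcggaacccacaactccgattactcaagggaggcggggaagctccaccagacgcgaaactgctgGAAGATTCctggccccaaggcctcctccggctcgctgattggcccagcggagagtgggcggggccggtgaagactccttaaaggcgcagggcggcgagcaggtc
Hspa1b: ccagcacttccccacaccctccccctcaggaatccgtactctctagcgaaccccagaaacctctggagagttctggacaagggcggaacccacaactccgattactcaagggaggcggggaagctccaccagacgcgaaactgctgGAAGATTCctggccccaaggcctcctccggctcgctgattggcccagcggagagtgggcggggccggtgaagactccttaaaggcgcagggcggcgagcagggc

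The reticulum element stood once in Hspa5, at -65 to -47 from the start, and in 2 copies in Hsp90b1, at -212 to -194 and, on the other strand, at -107 to -89. It was found in 39 of 32851 promoters of the table (0.119%), searched over 250 bases before and 50 after the start. The pair GAANNTTC stood at -104 to -97 in both Hspa1a and Hspa1b, whose windows differed at 3 of 250 bases; 7.86% of promoters held it. The reticulum element includes a CCAAT box, which 37.4% of promoters held. The other arrangement, TTCNNGAA, present in 8.52% of promoters, and 3 alternating units of GAA and TTC with 2 bases between units, present in 0.603%, were not found in the promoters of the 6 members. Dnajb1 and Dnajc7 held none of the heat shock or reticulum letters in the windows of the table.

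The members fell into abundant, moderate and nearly silent genes. Per length, as CPM per kilobase of exon, the median level over the 22 sums was 253 for Hspa5, 230 for Hsp90ab1 and 198 for Hsp90b1. Dnajc7 had 56.5, Hspa8 36.4, Dnajb1 21.6 and Hsp90aa1 7.09 on the same scale. The stress-inducible pair was at the bottom, with 0.0958 for Hspa1a and 0 for Hspa1b. Because reads of near-identical copies may be split or dropped in counting, the levels of some members are uncertain: 79.7% of the 31-base windows of the longest coding transcript of Hspa8 also occurred in transcripts of other genes, mainly the pseudogene Gm15459, and the share was 62.9% for Hsp90aa1, 70.1% for Hspa1a and 68.2% for Hspa1b. It was 17.1% for Hsp90b1, 16.8% for Dnajc7, 16.6% for Hsp90ab1, 1.11% for Dnajb1 and 0.0549% for Hspa5.

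The share of cells with a read followed another order. With every cell thinned to 50000 reads (941 cells), Hsp90b1 was read in 89.8% of cells, Hspa8 in 86.9%, Hspa5 in 82.5% and Hsp90ab1 in 80.7%. Dnajc7 was read in 55.9%, Hsp90aa1 in 39.4% and Dnajb1 in 22.4%. Without thinning (1041 cells) the shares were 88.1% for Hsp90b1, 85.2% for Hspa8, 83.3% for Hspa5, 79.9% for Hsp90ab1, 56.3% for Dnajc7, 46.0% for Hsp90aa1 and 23.2% for Dnajb1. The median level in cells with a read was 951 CPM for Hspa5, 686 for Hsp90b1, 648 for Hsp90ab1, 415 for Dnajc7, 258 for Dnajb1, 147 for Hspa8 and 42.5 for Hsp90aa1. Dnajb1, read in the fewest cells of these, thus lay between Dnajc7 and Hspa8 by this level.

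**Figure D1:**
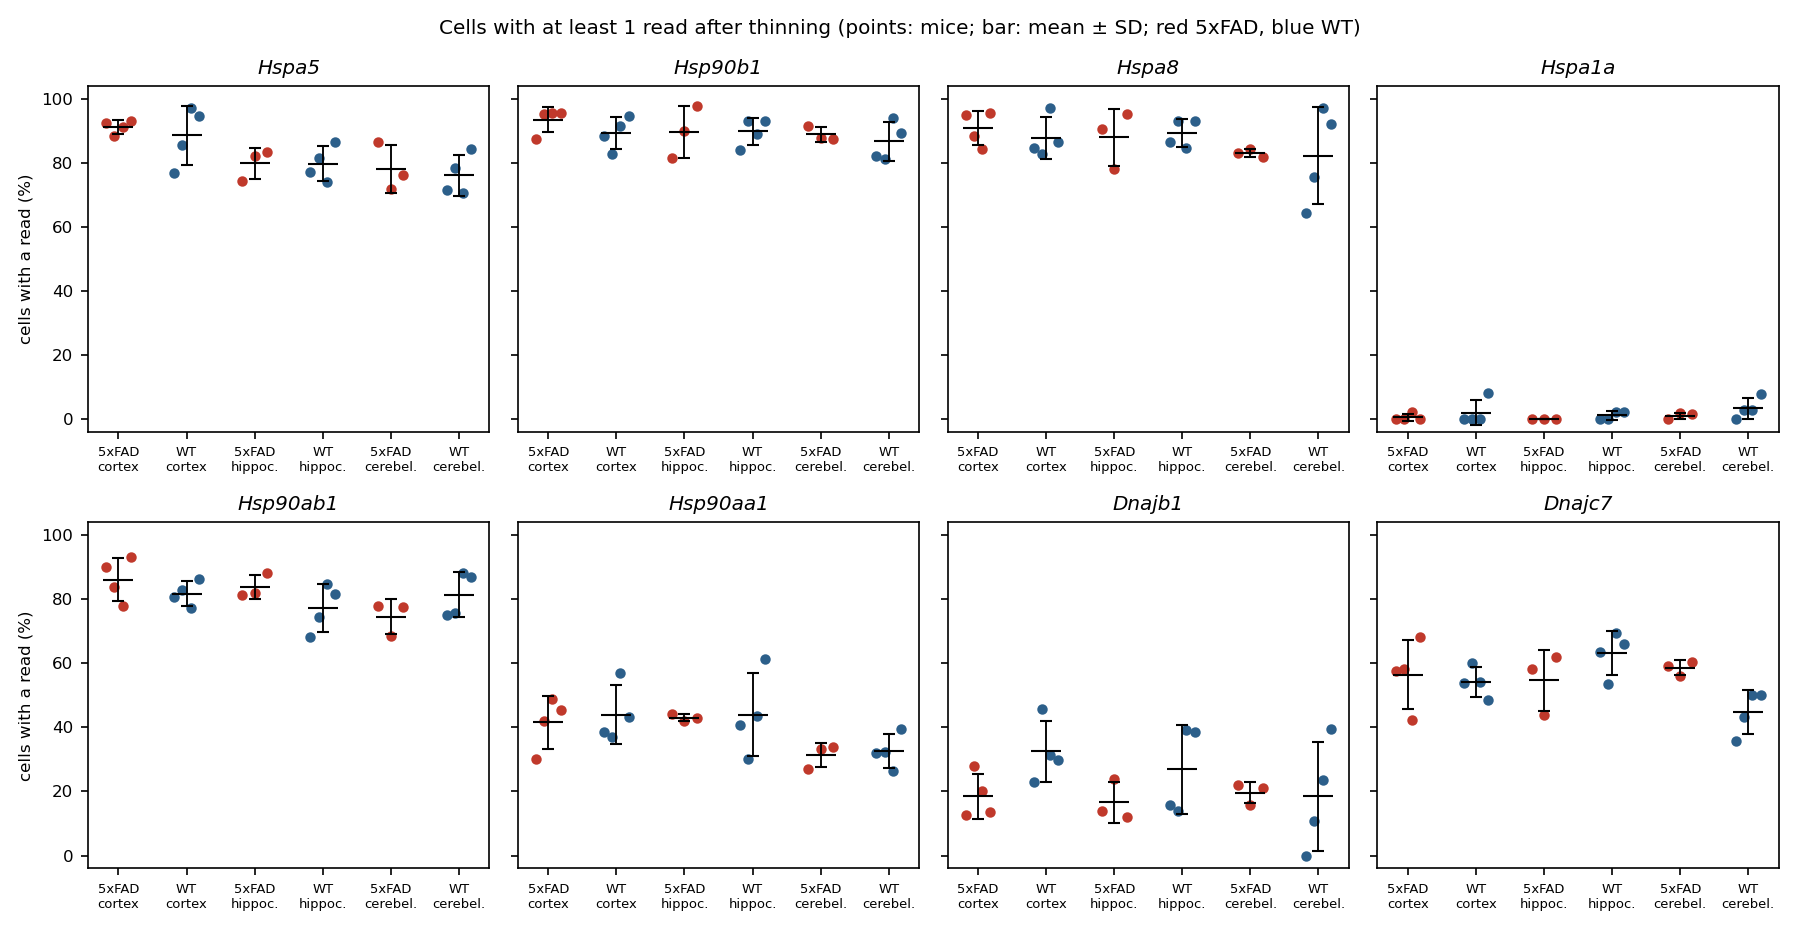
Share of cells with at least 1 read (%, vertical axis) after thinning to 50000 reads, for 8 members in the 6 groups (horizontal axis); a point is 1 mouse, and the bar with whiskers is the mean ± SD over mice. Hspa5, Hsp90b1, Hspa8 and Hsp90ab1 are read in most cells of every group, Dnajb1 ranges from 0 to 45.7% of cells between mice, and Hspa1a lies near 0.

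Levels between groups were compared on the sums with edgeR's quasi-likelihood test, with Benjamini-Hochberg adjustment over all 17358 genes tested and a threshold of 0.05. Of the 9 members, 8 passed the filter on low counts; Hspa1b, with 5 reads in 1 cell of 5xFAD hippocampus, did not. Of the 8, the number that passed the threshold for 5xFAD against WT was 0 in cortex, 0 in hippocampus and 1 in cerebellum, where Dnajc7 was higher. Over all genes, 0.294% passed in cortex, 1.01% in hippocampus and 0.0461% in cerebellum. At an unadjusted p under 0.05 the members numbered 0, 2 and 1 in cortex, hippocampus and cerebellum, where all genes gave 11.7%, 13.1% and 8.92%, and DESeq2 and limma voom also called 0 members in cortex and hippocampus. The median log2 fold change of the 8 members was -0.04 in cortex, 0.03 in hippocampus and 0.00 in cerebellum, beside -0.09, 0.10 and -0.01 for all genes.

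**Figure D2:**
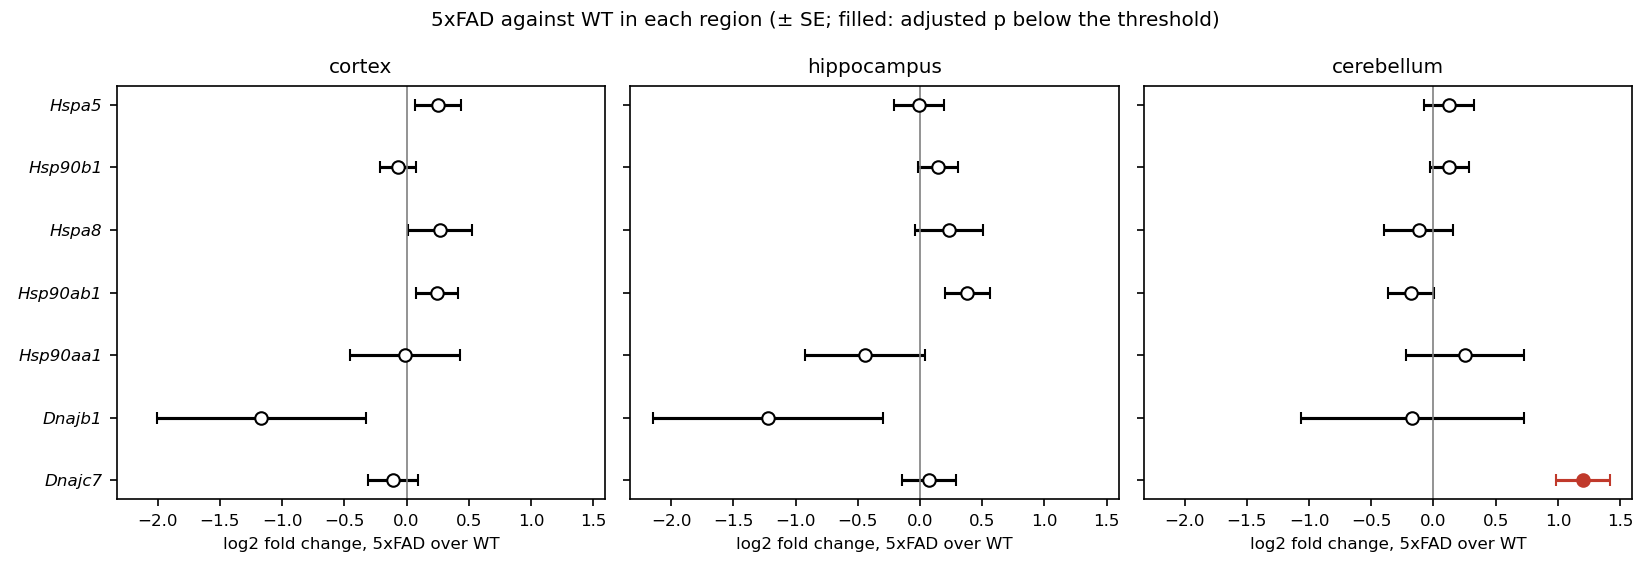
Log2 fold change, 5xFAD over WT (horizontal axis, ± SE), of 7 members in cortex, hippocampus and cerebellum; Hspa1a is left out because its reads came from few cells. The filled point, Dnajc7 in cerebellum at 1.20, is the one value past the threshold.

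Hspa5 encodes BiP, the HSP70 of the endoplasmic reticulum, which also holds the unfolded protein response in check (chromosome 2, 34771970 to 34777547, plus strand). In cortex its level was 10.10, 10.35, 10.24 and 10.18 log2 CPM in 5xFAD mice, against 9.30, 9.98, 10.15 and 10.26 log2 CPM in WT mice. WT mouse 1 was the lowest of all 22 sums, and the groups overlapped (log2 fold change 0.26 ± 0.18 SE, adjusted p = 0.666, edgeR). In hippocampus it was 9.75, 10.35 and 10.00 log2 CPM in 5xFAD mice, against 9.95, 10.02, 9.70 and 10.47 log2 CPM in WT mice, and the fold change was -0.01 ± 0.20. In cerebellum it was 10.20, 9.99 and 10.29 log2 CPM in 5xFAD mice, against 9.77, 10.03, 9.99 and 10.31 log2 CPM in WT mice (0.13 ± 0.20). The groups overlapped in both regions.

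Hsp90b1 encodes GRP94, the HSP90 of the endoplasmic reticulum, which folds Toll-like receptors and integrins (chromosome 10, 86690209 to 86705509, minus strand). It was the steadiest member: its 22 sums spanned 0.65 on the log2 scale, from 9.34 to 10.00 log2 CPM. Hspa5 spanned 1.17, Hspa8 1.20, Hsp90ab1 1.23, Dnajc7 1.56 and Hsp90aa1 1.87. The log2 fold changes of Hsp90b1 in 5xFAD over WT were -0.07 ± 0.15 in cortex, 0.15 ± 0.16 in hippocampus and 0.13 ± 0.16 in cerebellum (SE), with adjusted p of 0.958, 0.813 and 0.926 (edgeR). Over the 22 sums the log2 levels of Hsp90b1 and Hspa5 correlated at r = 0.48, and at 0.63 once group means were removed, a description of sums that share plates and depth.

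Hspa8 encodes HSC70, the constitutive HSP70 of the cytosol, which also takes part in chaperone-mediated autophagy and in uncoating of clathrin vesicles (chromosome 9, 40800984 to 40810087, plus strand). It averaged 7.41 ± 0.16 log2 CPM in 5xFAD cortex and 7.08 ± 0.51 in WT cortex (SD, n = 4 each). It averaged 7.46 ± 0.29 log2 CPM in 5xFAD hippocampus (n = 3) and 7.20 ± 0.42 in WT hippocampus (n = 4). In cerebellum it averaged 7.24 ± 0.07 log2 CPM in 5xFAD mice (n = 3) and 7.31 ± 0.42 in WT mice (n = 4). Mice overlapped between genotypes in every region, and the adjusted p was 0.797, 0.841 and 0.988 (edgeR). The copy Gm15459 held 0, 1 and 0 reads in 5xFAD cortex, hippocampus and cerebellum and 4, 7 and 2 reads in the WT regions, so few reads were counted to it.

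Hspa1a, the classical stress-inducible HSP70 (chromosome 17, 34969190 to 34972156, minus strand), was close to silent. It had 445 reads in 19 of 1041 cells, and 131 of these reads lay in 1 cell of WT cerebellum mouse 4. By mouse, 5xFAD cortex had 0, 0, 3 and 5 reads and WT cortex 0, 0, 15 and 55 reads. The 3 mice of 5xFAD hippocampus had 0 reads, and WT hippocampus had 0, 0, 51 and 44 reads. In cerebellum, 5xFAD mice had 0, 23 and 19 reads and WT mice 2, 12, 8 and 208 reads. Cells with a read numbered 2 of 183 in 5xFAD cortex and 5 of 167 in WT cortex, 0 of 154 in 5xFAD hippocampus and 3 of 182 in WT hippocampus, and 2 of 193 in 5xFAD cerebellum and 7 of 162 in WT cerebellum. With 5xFAD hippocampus set at a floor of 3 reads over the group, Hspa1a was 36.7-fold lower there than in WT hippocampus. The WT reads came from 3 cells of 2 mice, so this value is not a firm bound. The difference did not pass (unadjusted p = 0.0211, adjusted p = 0.330, edgeR). After thinning, 0 of 135 cells of 5xFAD hippocampus had a read, which allows a share of up to 2.22% (3 cells of 135), and 2 of 177 cells (1.13%, 95% exact binomial interval 0.137% to 4.02%) of WT hippocampus did. Reads of 1 molecule are not independent, so floors and intervals cover counting error only.

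Hsp90ab1 encodes the constitutive HSP90 beta of the cytosol (chromosome 17, 45567775 to 45573271, minus strand). In hippocampus it was 9.73, 9.72 and 9.86 log2 CPM in 5xFAD mice, against 9.33, 9.48, 9.34 and 9.42 log2 CPM in WT mice. Every 5xFAD mouse was above every WT mouse. The log2 fold change was 0.38 ± 0.18 SE and did not pass the threshold over all genes (unadjusted p = 0.0482, adjusted p = 0.379, edgeR); groups did not overlap for 11% of all genes in this comparison, and for 2 of the 8 members. Mitochondrial reads also separated these groups, at 3.23%, 4.07% and 2.36% of the sum in 5xFAD hippocampus and 1.60% to 1.71% in WT hippocampus, and their part in the hippocampal values of Hsp90ab1 and of the other members was not tested. In cortex it was 9.16, 9.64, 9.08 and 9.44 log2 CPM in 5xFAD mice, against 8.96, 8.75, 9.33 and 9.28 log2 CPM in WT mice, which overlap (0.24 ± 0.17); no member was free of overlap in cortex, against 5.71% of all genes. In cerebellum it was 9.61, 9.32 and 9.54 log2 CPM in 5xFAD mice, against 9.08, 9.79, 9.72 and 9.97 log2 CPM in WT mice (-0.18 ± 0.18).

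Hsp90aa1, the more inducible HSP90 alpha (chromosome 12, 110690605 to 110702728, minus strand), was the least abundant cytosolic HSP90. It averaged 4.62 ± 0.60 log2 CPM in 5xFAD cortex and 4.69 ± 0.30 in WT cortex, 4.77 ± 0.18 in 5xFAD hippocampus and 5.12 ± 0.67 in WT hippocampus, and 4.88 ± 0.43 in 5xFAD cerebellum and 4.61 ± 0.49 in WT cerebellum (SD, n as above). Mice overlapped between genotypes in every region. The log2 fold changes of 5xFAD over WT were -0.01 ± 0.44, -0.44 ± 0.48 and 0.25 ± 0.48 (SE) in cortex, hippocampus and cerebellum. Its share of cells with a read after thinning was 27.1% to 33.8% by mouse in 5xFAD cerebellum and 26.5% to 39.5% in WT cerebellum, 42.0% to 44.2% in 5xFAD hippocampus and 30.2% to 61.4% in WT hippocampus.

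**Figure D3:**
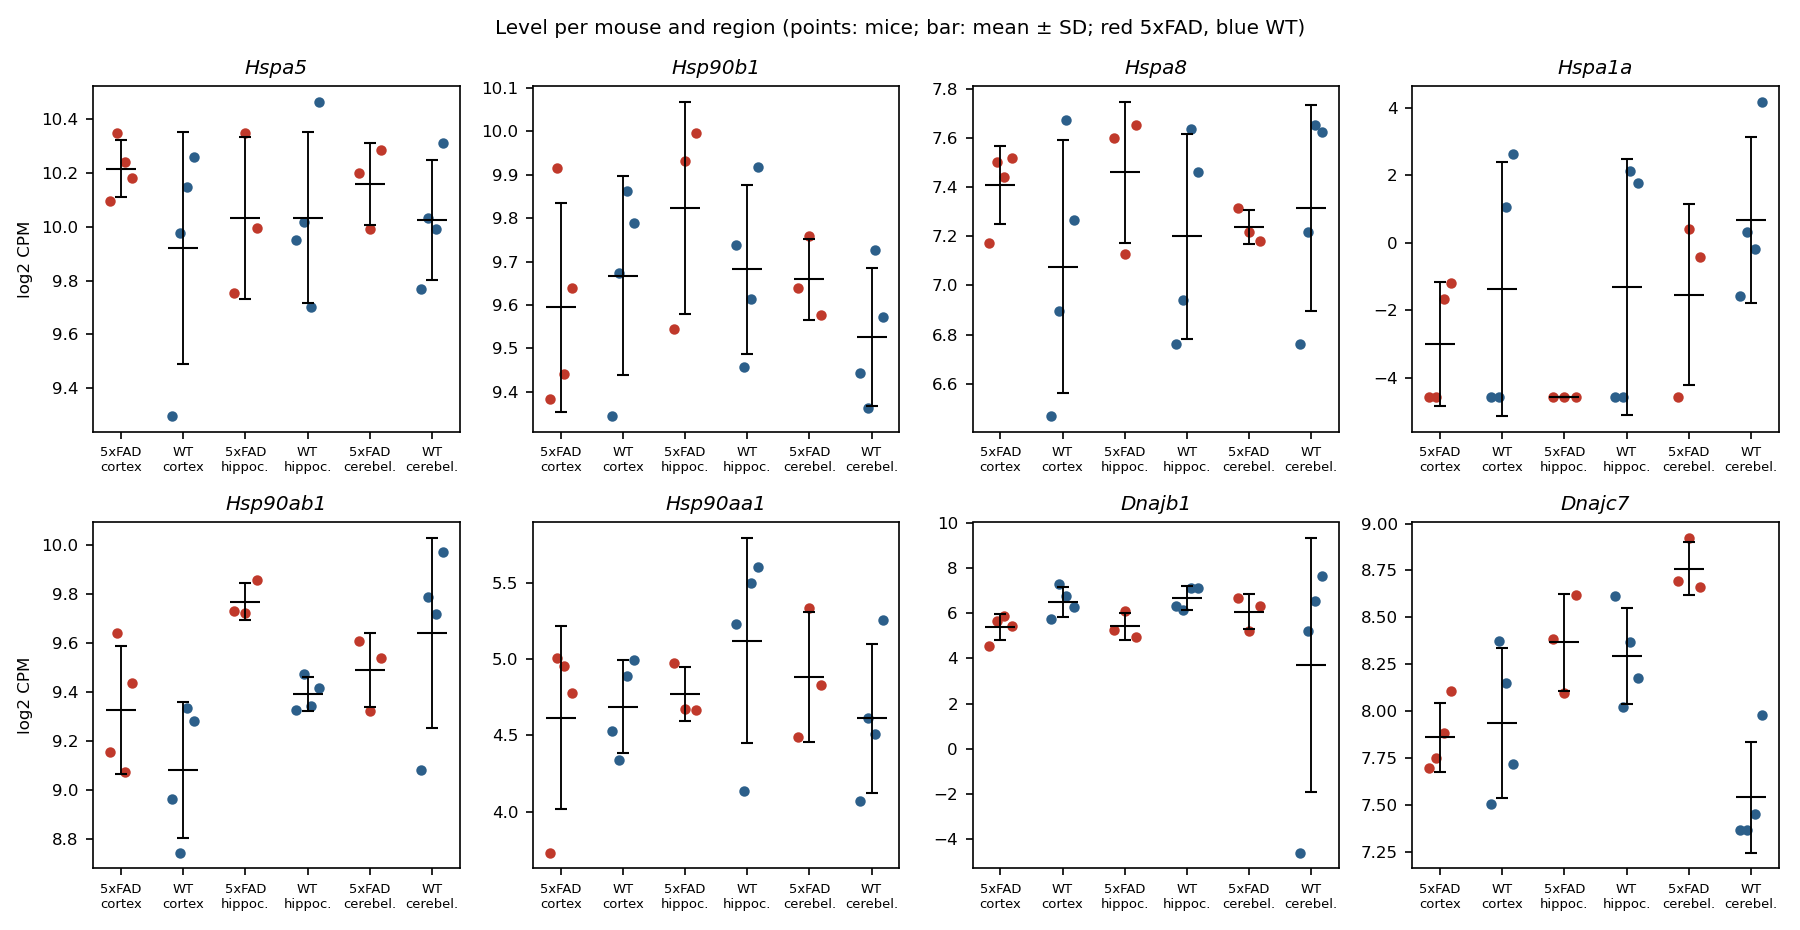
Level in log2 CPM (vertical axis, own scale per gene) of 8 members in each mouse and region; a point is 1 mouse, the bar with whiskers is the mean ± SD, 5xFAD is red and WT blue. Points at -4.58 are sums with 0 reads (Hspa1a, and Dnajb1 in 1 WT mouse). Dnajc7 in cerebellum and Hsp90ab1 in hippocampus are the panels in which 5xFAD mice lie above all WT mice of the region.

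Dnajb1 encodes HSP40, the J-domain partner that HSP70 uses to refold and to take apart protein aggregates (chromosome 8, 83608193 to 83612653, plus strand). In hippocampus it was 5.24, 6.10 and 4.95 log2 CPM in 5xFAD mice, against 6.32, 6.13, 7.12 and 7.11 log2 CPM in WT mice, with no overlap. In cortex it was 4.56, 5.67, 5.86 and 5.41 log2 CPM in 5xFAD mice, against 5.73, 7.28, 6.77 and 6.26 log2 CPM in WT mice, where WT mouse 1 lay below 5xFAD mouse 3. Neither difference passed: the log2 fold change was -1.22 ± 0.93 SE in hippocampus (adjusted p = 0.651) and -1.17 ± 0.84 in cortex (adjusted p = 0.666, edgeR). The share of cells with a read after thinning was 17% (95% exact binomial interval 11.1% to 24.5%) in 5xFAD hippocampus and 27.1% (20.7% to 34.3%) in WT hippocampus. By mouse it was 14%, 24% and 11.9% in 5xFAD hippocampus and 15.9%, 14%, 39.1% and 38.6% in WT hippocampus, so the mice overlapped. A median of 25.6% of the Dnajb1 reads of a sum came from its top cell. In cerebellum it was 6.68, 5.20 and 6.32 log2 CPM in 5xFAD mice, against 5.22, 6.55 and 7.63 log2 CPM in 3 WT mice, while WT mouse 1 had 0 of 6627264 reads, where 3 reads would have been 0.453 CPM (-0.17 ± 0.90, adjusted p = 1, edgeR).

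Dnajc7, also called TPR2, is a cochaperone with a J domain and TPR repeats that binds both HSP70 and HSP90 and passes clients between them (chromosome 11, 100582818 to 100620168, minus strand). It was the one member that passed the threshold for 5xFAD against WT in a region. The cerebellar groups of this comparison came from separate plates, so the call cannot be assigned to genotype alone. In cerebellum it was 8.70, 8.92 and 8.66 log2 CPM in 5xFAD mice, against 7.37, 7.37, 7.45 and 7.98 log2 CPM in WT mice. Every 5xFAD mouse lay above every WT mouse, as for 6.56% of all genes, and the log2 fold change was 1.20 ± 0.22 SE (adjusted p = 0.0438, edgeR). More cells had a read and these held more of it: after thinning the share was 59.3%, 56.1% and 60.6% in 5xFAD mice, against 35.7%, 43.2%, 50% and 50% in WT mice, and the median in cells with a read was 561 CPM in 5xFAD cerebellum and 323 CPM in WT cerebellum. These shares and medians are descriptions, with no test.

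The call on Dnajc7 stood near the threshold. It was lost when any of the 3 5xFAD mice or WT mouse 1, 2 or 3 was left out (adjusted p 0.114 to 0.195, edgeR) and kept without WT mouse 4 (adjusted p = 0.0157). It was also lost when only the cerebellar groups were fitted (adjusted p = 0.587, edgeR) and with limma on cell means (0.252). Further losses came with the deposited columns taken as they stand (0.110, edgeR) and with plate columns 1 and 2 dropped (0.111, edgeR). Of the 11 settings other than leaving out a mouse, 7 kept the call. Over these 11 the adjusted p ran from 6.63e-05 to 0.587 (edgeR, DESeq2 or limma). The log2 fold change was 1.09 to 1.60 under all alternatives. Markers of other cells were read in cerebellum. Border macrophage genes had reads for 6 of 7 in 5xFAD mice and 7 of 7 in WT mice. Their sums, 268 to 543 CPM in 5xFAD mice and 8.24 to 668 CPM in WT mice, overlapped. Lyve1 was the one at 0 in 5xFAD mice. Neutrophil genes had reads for 6 of 6 in 5xFAD mice and 2 of 6 in WT mice (S100a8, Camp, Retnlg and Ltf at 0). They summed to 0.689 to 17822 CPM in the 3 5xFAD mice and 0 to 3.68 CPM in WT mice. The 5xFAD median was 1.01 CPM, so the high sum lay in 1 mouse. Monocyte genes summed to 50.5 to 2192 CPM in 5xFAD mice and 36.5 to 398 CPM in WT mice, which overlapped. Without the wells that carry markers of other cells the fold change was 1.22 (adjusted p = 0.0232, edgeR), and with cells thinned to equal depth 1.29 (adjusted p = 0.0252). Dnajc7 overlaps Cnp and Nkiras2 on the other strand, and the sources used here do not say whether counting used strand. In the same comparison the log2 fold change was 0.72 ± 0.58 for Nkiras2 and 0.19 ± 0.49 for Cnp, neither past the threshold.

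In cortex Dnajc7 was 7.70, 7.75, 7.88 and 8.11 log2 CPM in 5xFAD mice, against 7.51, 8.38, 8.15 and 7.72 log2 CPM in WT mice (-0.11 ± 0.20). In hippocampus it was 8.38, 8.10 and 8.62 log2 CPM in 5xFAD mice, against 8.61, 8.02, 8.37 and 8.18 log2 CPM in WT mice (0.07 ± 0.22), and the groups overlapped in both regions. The difference between regions in the genotype effect was tested directly. For cerebellum minus cortex it was 1.31 ± 0.30 SE (unadjusted p = 0.000226, adjusted p = 0.15, edgeR), where 0.0807% of all genes passed. For hippocampus minus cerebellum it was -1.13 ± 0.31 (adjusted p = 0.163, edgeR), where 0.3% passed, and for hippocampus minus cortex 0.18 ± 0.30, where 0.0461% passed. No member passed in these 3 tests with edgeR, and 0, 2 and 1 members had an unadjusted p under 0.05 for hippocampus minus cortex, hippocampus minus cerebellum and cerebellum minus cortex, beside 11.4%, 11.4% and 9.85% of all genes. DESeq2 called Dnajc7 in the 2 that involve cerebellum (adjusted p = 0.0275 and 0.00277), and limma voom in hippocampus minus cerebellum (0.0434).

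Ordered by level, the groups of a plate stood next to each other for Dnajc7. The group means were 8.76 ± 0.14 log2 CPM in 5xFAD cerebellum and 8.37 ± 0.26 in 5xFAD hippocampus, which share a plate, then 8.30 ± 0.25 in WT hippocampus and 7.94 ± 0.40 in WT cortex on another plate, then 7.86 ± 0.18 in 5xFAD cortex and 7.54 ± 0.29 in WT cerebellum on the last one (SD over mice). In this order the mice of neighbouring groups overlapped, except those of the first pair. In the same order of plates, 6 sums lay between 8.10 and 8.92, 8 between 7.51 and 8.61 and 8 between 7.37 and 8.11. Plate and group cannot be told apart for these values.

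**Figure D4:**
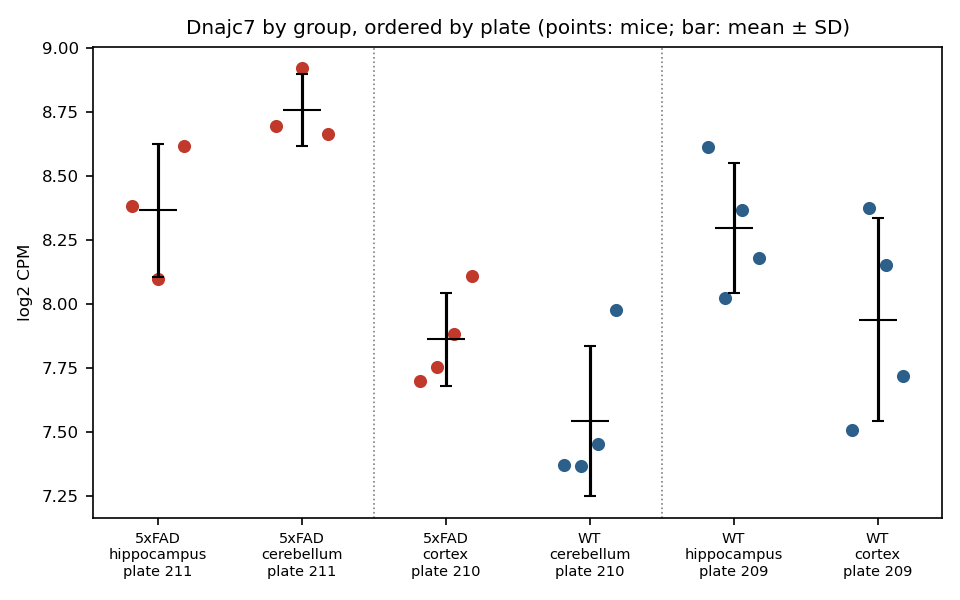
Dnajc7 in log2 CPM (vertical axis) by group, with the groups set by plate and dotted lines between plates; a point is 1 mouse and the bar with whiskers is the mean ± SD, 5xFAD in red and WT in blue. The plate with 5xFAD hippocampus and 5xFAD cerebellum lies highest, at 8.10 to 8.92, and the plate with 5xFAD cortex and WT cerebellum lowest, at 7.37 to 8.11.

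Regions within a genotype were compared next; 2 of these 6 comparisons lie within a plate, hippocampus against cerebellum in 5xFAD mice and hippocampus against cortex in WT mice. With edgeR, 0 of the 8 members passed in any of the 6. Over all genes 0.219% passed for hippocampus against cerebellum, 0.0346% for hippocampus against cortex and 0.0576% for cerebellum against cortex in 5xFAD mice, and 0.374%, 0% and 0.277% in the same order in WT mice. For WT hippocampus against cortex, where edgeR called 0 genes, 1827 had an unadjusted p under 0.05, limma voom called 5 and DESeq2 384. Members with an unadjusted p under 0.05 numbered 1, 2 and 1 in 5xFAD mice, beside 7.79%, 8.32% and 8.19% of all genes, and 1, 0 and 1 in WT mice, beside 13.7%, 10.5% and 12%. In 5xFAD hippocampus against cortex, Hsp90ab1 was the 1 member whose mice did not overlap (0.43 ± 0.18 SE, adjusted p = 0.594, edgeR), as for 8.08% of all genes.

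Within the plate of 5xFAD hippocampus and cerebellum, Dnajc7 was 8.38, 8.10 and 8.62 log2 CPM in 5xFAD hippocampus, against 8.70, 8.92 and 8.66 log2 CPM in 5xFAD cerebellum, with no overlap (log2 fold change -0.38 ± 0.23 SE, adjusted p = 0.691, edgeR). Hsp90ab1 was higher in each 5xFAD hippocampus (9.73, 9.72 and 9.86 log2 CPM) than in any 5xFAD cerebellum (9.61, 9.32 and 9.54 log2 CPM), by 0.28 ± 0.19 (adjusted p = 0.783, edgeR). Groups did not overlap for 13.1% of all genes there, and the share of mitochondrial reads did not overlap either, with 1.66% to 1.96% in 5xFAD cerebellum. Within the plate of WT hippocampus and cortex, the fold changes of WT hippocampus over WT cortex were 0.29 ± 0.17 for Hsp90ab1 and 0.33 ± 0.20 for Dnajc7, and the mice overlapped for all 8 members, where 3.1% of all genes did not overlap.

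Between plates, Dnajc7 was higher by 0.90 ± 0.22 SE on the log2 scale in 5xFAD cerebellum than in 5xFAD cortex and by 0.75 ± 0.20 in WT hippocampus than in WT cerebellum, with no overlap of mice in either, which held for 8.16% and 4.96% of all genes. The adjusted p was 0.232 and 0.151 (edgeR); DESeq2 called both (0.00544 and 0.0293), and limma voom the first (0.0106). Hsp90ab1 was 9.08, 9.79, 9.72 and 9.97 log2 CPM in WT cerebellum, against 8.96, 8.75, 9.33 and 9.28 log2 CPM in WT cortex, and WT cerebellum mouse 1 was the one that overlapped; 4.64% of all genes had no overlap there. The fold change was 0.58 ± 0.17 (adjusted p = 0.211, edgeR), it was called by DESeq2 (0.0465), and without WT cerebellum mouse 1 it was 0.73 (adjusted p = 0.0432, edgeR).

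Disease-associated cells were then compared with the other cells of the same 5xFAD mice, as classes that a panel of 12 disease-associated genes defines and that hold no member. Panel-positive cells had at least 3 of the 12 genes after thinning and panel-null cells 0, and only mice with at least 5 cells of each class were used. This gave 62 panel-positive and 59 panel-null cells of 4 mice in cortex, 59 and 14 cells of 2 mice in hippocampus, and 50 and 65 cells of 3 mice in cerebellum. Of the 9 members, 7 were tested in each region and 0 passed with edgeR, where 0.229%, 0% and 0.061% of all genes passed in cortex, hippocampus and cerebellum. At an unadjusted p under 0.05 they numbered 1, 1 and 2, beside 6.44%, 2.72% and 3.81% of all genes, and DESeq2 called 0. In hippocampus, where edgeR called 0 genes, 266 of 9791 had an unadjusted p under 0.05 and DESeq2 called 226.

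All 7 tested members are given, in the order cortex, hippocampus and cerebellum. In panel-positive over panel-null cells, Hspa5 had a log2 fold change of 0.93 ± 0.41 SE in cortex (higher in 3 of 4 mice), 1.21 ± 0.39 in hippocampus (2 of 2 mice) and 0.98 ± 0.29 in cerebellum (3 of 3 mice). Hsp90ab1 had 0.66 ± 0.24 (4 of 4 mice), 0.65 ± 0.38 (2 of 2) and 1.45 ± 0.42 (3 of 3). Hspa8 had 0.43 ± 0.31 (4 of 4 mice), 0.35 ± 0.69 (2 of 2) and 0.95 ± 0.43 (3 of 3). Hsp90b1 had 0.09 ± 0.21 (3 of 4 mice), 0.39 ± 0.36 (2 of 2) and 0.42 ± 0.32 (3 of 3). Hsp90aa1, with wide errors, had 0.70 ± 1.06 (4 of 4 mice), 0.57 ± 2.25 (2 of 2) and 1.86 ± 1.21 (3 of 3). Dnajb1, also with wide errors, had 2.54 ± 1.79 (3 of 4 mice), -0.71 ± 1.42 (0 of 2) and 1.22 ± 1.87 (2 of 3). For Dnajc7 the values were -0.55 ± 0.46 (higher in 2 of 4 mice), 0.02 ± 0.85 (1 of 2) and -0.31 ± 0.40 (1 of 3). The smallest adjusted p among the 7 members was 0.663 (edgeR), so none passed. How many mice were higher was not counted over all genes, and by the design text regions share mice.

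The median log2 fold change of the 7 tested members was 0.66 in cortex, 0.39 in hippocampus and 0.98 in cerebellum, beside 0.07, 0.95 and -0.04 over all genes tested. In hippocampus the members' median thus lay below that of all genes. The panel-null sums there held 7 cells in each mouse, against 26 and 33 cells in the panel-positive sums. The part of these small sums in the median over all genes was not tested. Of the border macrophage markers, 4 of 7 were tested in cerebellum, with a median log2 fold change of 9.93 and 0 past the threshold. Of the immediate early genes, 13, 14 and 15 were tested in cortex, hippocampus and cerebellum, 9, 11 and 12 had a positive fold change, and the median was 0.61, 1.08 and 0.97. None passed with edgeR; those with an unadjusted p under 0.05, named after their values were seen, were Egr2 in cortex, Atf3 and Egr1 in hippocampus, and Egr1 and Egr2 in cerebellum, all with a positive fold change. The part of the immediate early genes in the members' values was not tested. Without wells that carry markers of other cells, an alternative chosen after seeing the data, the fold change in cerebellum was 0.99 ± 0.28 for Hspa5 and 1.33 ± 0.41 for Hsp90ab1.

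**Figure D5:**
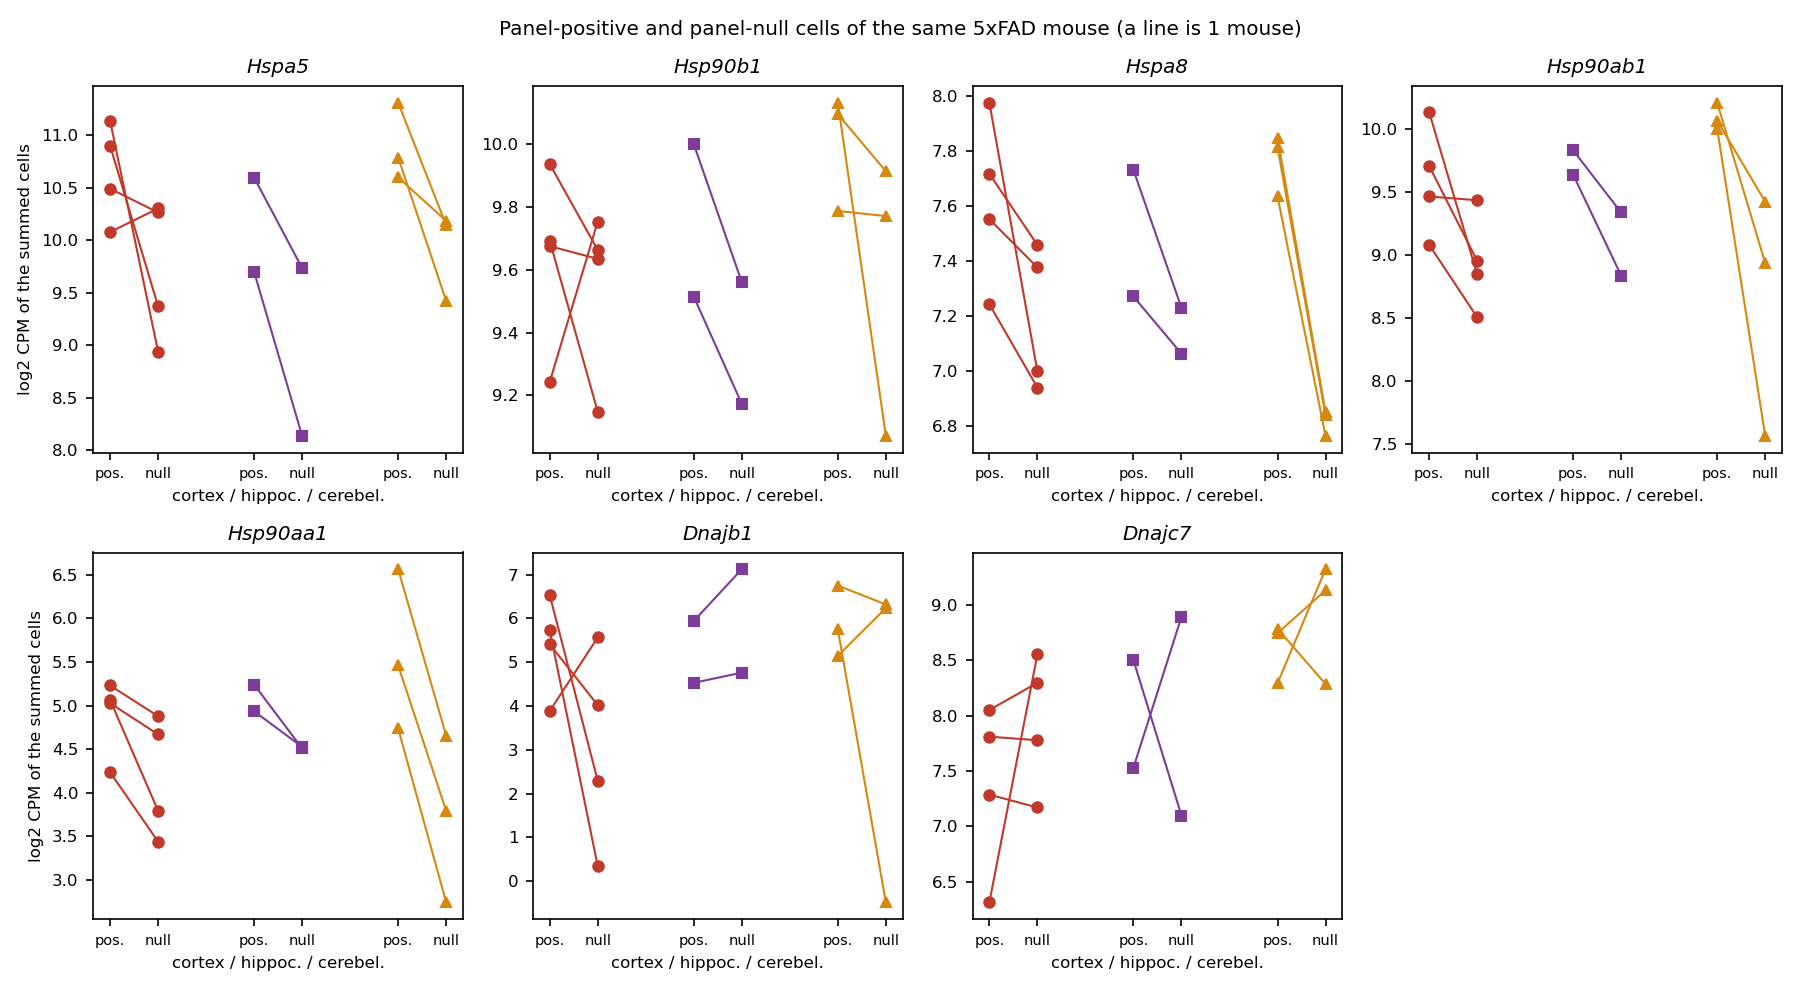
Level in log2 CPM (vertical axis, own scale per gene) of the 7 tested members in panel-positive and panel-null cells of 5xFAD mice; a line joins the 2 classes of 1 mouse, in cortex (circles), hippocampus (squares) and cerebellum (triangles). Hsp90ab1, Hspa8 and Hsp90aa1 are higher in the panel-positive cells of all 9 mouse and region pairs, Hspa5 and Hsp90b1 in 8, Dnajb1 in 5 and Dnajc7 in 4, and none passed the test. By the design text regions share mice, so the 9 pairs are not taken as independent, and such counts were not made over all genes. In hippocampus, where each panel-null sum held 7 cells, the median log2 fold change over all genes tested was 0.95.

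The wider chaperone system was read from 8 further lists of 133 genes in all: HSP70 and HSP110 relatives, J-domain proteins, cochaperones of HSP70 and HSP90, small heat shock proteins, chaperonins and prefoldin, heat shock factors, endoplasmic reticulum folding and unfolded protein response signalling. Of the 133 genes, 125 were tested. For 5xFAD against WT 0 passed in cortex, hippocampus and cerebellum with edgeR, and 11, 14 and 8 had an unadjusted p under 0.05, beside 11.7%, 13.1% and 8.92% of all genes. DESeq2 called 0, 5 and 3 of them, among them, as examples chosen after their values were seen, the cochaperone Bag2 in hippocampus and cerebellum, and limma voom called 1, the reticulum gene Sdf2l1 in hippocampus. The median log2 fold change was 0.02, 0.02 and 0.00, beside -0.09, 0.10 and -0.01 over all genes.

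Of these lists, endoplasmic reticulum folding is the one that Hspa5 and Hsp90b1 belong with by role. In 5xFAD over WT, 20 of its 22 tested genes had a positive log2 fold change in cortex (median 0.27), 16 in hippocampus (median 0.22) and 11 in cerebellum (median 0.02), and 3, 6 and 2 had an unadjusted p under 0.05. Over all genes 46.1%, 53.9% and 47.9% had a positive fold change and 11.7%, 13.1% and 8.92% an unadjusted p under 0.05. Both cerebellar counts, and the cortical count of 3 with an unadjusted p under 0.05, were thus near the background. Genes of the list are not taken as independent, and the list was not tested as a set. None of the 22 passed with edgeR. Of the 8 lists, 1 gene passed in any region comparison or genotype difference: Edem1, which sends misfolded glycoproteins out of the reticulum for breakdown, was higher in WT hippocampus than in WT cerebellum by 0.80 ± 0.18 SE (adjusted p = 0.0452, edgeR). Immediate early genes, which rise with handling, summed to 731 to 1407 CPM in 5xFAD cortex and 941 to 1124 CPM in WT cortex, 1054 to 1642 CPM in 5xFAD hippocampus and 1088 to 1255 CPM in WT hippocampus, and 943 to 1255 CPM in 5xFAD cerebellum and 736 to 1213 CPM in WT cerebellum. None of the 19 tested passed for 5xFAD against WT with edgeR, and 8, 5 and 1 had an unadjusted p under 0.05 in cortex, hippocampus and cerebellum, beside 11.7%, 13.1% and 8.92% of all genes. In cortex 14 of the 19 had a positive fold change and the median was 0.56. Their part in the members' values was not tested.

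Genes whose log2 level followed a member most closely over the 22 sums were named by Pearson's r, as a description of sums that share plates and depth. They were Chrac1 (r = 0.78) and Ndst2 (0.73) for Hspa5, Mtif2 (0.84) and Ddx54 (0.74) for Hsp90b1, Atp8a1 (0.74) and Cct2 (0.70) for Hspa8, and Il17ra (0.80) and Cryba4 (0.77) for Hspa1a. They were Adar (0.71) and Prdx5 (0.70) for Hsp90ab1, Suv420h1 (0.72) and Bre (0.67) for Hsp90aa1, and Zfand6 (0.74) and Nub1 (0.71) for Dnajc7. For Dnajb1 they were Tmem199 (0.94) and Sptssa (0.88), but without WT cerebellum mouse 1, which had no Dnajb1 read, r was 0.18 and 0.12. Once group means were removed, r was 0.33 for Nub1 and 0.52 for Zfand6 with Dnajc7, 0.50 for Adar and 0.60 for Prdx5 with Hsp90ab1, and 0.66 to 0.95 for the others.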

How the data were processed

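Single microglia were sorted into plates and sequenced with Smart-seq2, which reads whole transcripts without molecular identifiers. The deposited table holds raw counts per gene, made on GRCm38 with featureCounts 1.5.1 after alignment by STAR 2.5.2b, per the submitters' processing notes; the strand setting is not given there. In 96 columns, those of plate columns 1 and 2, the deposited counts are sums over other wells of the row (wells 10 to 19 and 20 to 24); subtracting these wells gave 0 negative values of 4664352, and the differences were used. Cells with at least 500 genes, 10000 gene reads and at most 20% mitochondrial reads were kept (1041, with 99 left out). Reads were summed per mouse and region, and ERCC spike-ins (92 rows) were left out. Tests used edgeR 4.0.16 (quasi-likelihood, TMM, filterByExpr, 22 sums in one fit with a term per group, Benjamini-Hochberg over 17358 genes) in R 4.3.3; SE is the fold change over the square root of F, and log2 CPM has a prior count of 0.5. Panel classes were fitted with a mouse term. Alternatives used DESeq2 1.42.0 and limma 3.58.1. The edgeR fit was tested on simulated counts with genes changed in 5xFAD cerebellum. For 5xFAD against WT cerebellum it recovered 40 of 100 genes changed by 2 on the log2 scale. It recovered 68 of 100 genes changed by 3, with 1 call among unchanged genes. Changes of these sizes can therefore be missed. The changed genes were drawn at random from those above a cut on level, in this comparison only. The rates for single members and for other comparisons were not worked out. Levels per length use GENCODE M21 exons (46484 of 48587 symbols matched).

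The members and gene lists were chosen with earlier results of these data known. All 9 members are described. Genes outside them were named where they overlap a member or passed the test in a chaperone list. Of those called there by another tool, only some were named, as examples. The 2 genes with the highest r with a member were also named (searched where the mean was 5 log2 CPM or more and 20% of cells or more had reads). Others named were markers, immediate early genes, copies of a member and genes set beside Hspa1a in single cells. Cst7 was read as a check of the genotype labels, whose groups it did not separate in cerebellum. Alternatives changed the scaling, filter, test, fit, depth, wells, cells and classes, and left out each mouse. The mouse is the replicate, and both the number of mice and the depth limit precision.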

Additional observations from a re-analysis of the deposited data

Results flagged for a closer look

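In the groups of 4 mice, each member's log2 CPM and share of cells were checked for a sample far from the others. Of 64 such sets of 4 values, 2 held one. Chance flags about 1 in 20 independent sets, but these sets share mice and are not independent. Groups of 3 mice were not checked. Dnajc7 in WT cerebellum mouse 4 was 7.98 log2 CPM, where the other WT cerebellum mice had 7.37 to 7.45. Without that mouse the log2 fold change of 5xFAD over WT cerebellum was 1.37 (adjusted p = 0.0157, edgeR). Hspa1a was read in 8.89% of the cells of the same mouse, where the others had 2.38% to 2.86%, and 131 of its 208 Hspa1a reads were in 1 of 45 cells.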

How the results depend on the processing

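Of 8 members, edgeR called 1 (Dnajc7) in 5xFAD against WT cerebellum. The count was 0 with limma on cell means, with only the groups of the comparison, with the columns as deposited and with plate columns 1 and 2 left out, and 0 to 1 when a mouse was left out. In other comparisons the main count was 0. DESeq2 gave 1 in 5xFAD cerebellum against cortex, WT hippocampus against cerebellum and both genotype differences that involve cerebellum (Dnajc7), and 1 in WT cerebellum against cortex (Hsp90ab1). Limma voom gave 1 in 5xFAD cerebellum against cortex and in the genotype difference hippocampus minus cerebellum, and limma on cell means 1 in WT hippocampus against cerebellum (Dnajc7). WT cerebellum against cortex gave 0 to 1 when a mouse was left out. The cause was not tested, except that fitting fewer sums leaves fewer degrees of freedom. For single members, other settings left 1122 values as they were, 4 lost and 8 gained a call, and 96 uncalled values changed sign; leaving out a mouse gave 847, 6, 1 and 75. No called value reversed.

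Deviations of same-numbered regions of a genotype from their group means correlated at -0.0452 to 0.0612 (21 pairs, 0 above 0.1). Of 22 sums, 9 correlated best with their own number. That equal numbers stand for the same mouse is an assumption, which these values do not show. With the replicate block 0 members were called in the 9 comparisons it could be fitted to; over all genes it called 4 for 5xFAD cerebellum against cortex (10 without it), 5 for WT hippocampus against cortex (0), 26 for WT cerebellum against cortex (48) and 7 for the genotype difference cerebellum minus cortex (14). Panel classes without the block also gave 0 members. Hippocampal panel classes could not be fitted with 1 of 2 mice left out or with classes from all reads.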

Other observations

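The 19 cells with an Hspa1a read were compared with the other 1022 cells as a description, with no test, since the cells share mice. Hsph1, an HSP110 that recharges HSP70, was read in 36.8% of the Hspa1a cells and 9.0% of the others, and Hsp90aa1 in 73.7% and 45.5%. Dnajb1 was read in 26.3% of the Hspa1a cells and 23.1% of the others, and Bag3 and Dnajc7 also differed little. Hspa8 was read in 84.2% of the Hspa1a cells and 85.2% of the others. Dnaja4 and Fos were read in no Hspa1a cell and in 2.15% and 1.66% of the others, and Hspb1 in no cell. Jun (42.1% and 26.5%), Hspa5, Hsp90ab1 and Hsp90b1 were read in a larger share of the Hspa1a cells. The shares of the genes compared thus did not all go the same way. The median depth was 225443 reads in the Hspa1a cells and 253097.5 in the others, and 6 of the 19 carried markers of another cell type.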
